A study of Bos taurus with 81 samples.

Results

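H3K27me3 was compared between the inner cell mass (ICM), the cells of the bovine blastocyst that give rise to the embryo proper, and the trophectoderm (TE), the outer epithelium that contributes to the placenta. The comparison rested on 4 of the 81 libraries of the series, 2 of ICM and 2 of TE, and was restricted to the 29 autosomes. Libraries were made by CUT&Tag: antibody against the mark recruits a transposase, which inserts adapters into the DNA nearby. Each came with its own list of H3K27me3 peaks, called domains here. The autosomes were divided into 497623 bins of 5 kb, and a bin counted as marked where domains covered at least 50% of it. A bin was shared when all 4 libraries marked it, ICM-only when both ICM and no TE library marked it, and TE-only when both TE and no ICM library did. There were 35130 shared, 5749 ICM-only and 9666 TE-only bins, out of 73861 bins marked in at least 1 of the 4 libraries.

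All embryos were produced in vitro from abattoir oocytes and thawed semen, and all groups were untreated except for 1 group of 8-cell embryos cultured with α-amanitin, a blocker of transcription, which is given for reference only. The ICM was freed by immunosurgery, in which antibody and complement destroy the outer cells, whereas the TE was cut away with a blade. The lineage and the way it was isolated therefore cannot be told apart, and a TE piece may carry other cells of the blastocyst. The other untreated groups included germinal vesicle oocytes (GV) and embryos of 2, 4 and 8 cells (2C, 4C and 8C) at 32, 44 and 56 h after insemination. They also included morulae (MO) at 122 h and whole blastocysts (BL) at 172 h. Each of these groups had 2 H3K27me3 libraries. No time after insemination is given for the ICM and TE libraries, so their age relative to BL is unknown. H3K27ac, H3K4me3 and H3K9me3 also had 2 libraries in ICM and in TE, and ATAC-seq, which tags open chromatin without an antibody, had 3. A library held about 500 oocytes or 1000 to 1500 blastomeres. The labels do not say whether replicates came from separate embryo collections, so the p-values measure only the spread between these libraries, which may be technical. In such bulk samples, fewer cells with the mark and less of it per cell cannot be told apart. The labelled lineages were not checked against marker genes, because no gene annotation of the files' genome build was used here.

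H3K27me3 is laid down by Polycomb repressive complex 2, whose catalytic subunit is EZH2 or EZH1, and it is found over silent developmental genes and in broad domains of repressed chromatin. H3K27ac occupies the same lysine, so a histone tail cannot carry both marks there, and it is found at active enhancers and promoters. H3K4me3 marks promoters and H3K9me3 marks constitutive heterochromatin and repeats. How much of the oocyte's H3K27me3 is carried through cleavage differs between mammalian species.

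The TE libraries held more H3K27me3 domains on the autosomes and covered slightly more of them than the ICM libraries. ICM replicates 1 and 2 held 22559 and 16393 autosomal domains, and TE replicates 1 and 2 held 29713 and 24792. The domains covered 245.64 and 246.09 Mb in ICM, or 9.87% and 9.89% of the 2488.04 Mb analysed, and 268.02 and 278.03 Mb in TE, or 10.8% and 11.2%. Both TE libraries lay above both ICM libraries. The mean was 246 ± 0.322 Mb in ICM and 273 ± 7.08 Mb in TE (SD, n = 2 each), a log2 ratio of -0.15. The exact permutation test of 2 against 2 libraries gave p = 0.333, the smallest it can give. The ratio amounted to -1.94 times the pooled SD of replicates over the 9 H3K27me3 groups of the series, which was 0.0779 on the log2 scale. Sequencing depth is unknown, and a longer list from deeper sequencing and a wider mark cannot be told apart here.

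The libraries of the lineages overlapped in domain length. Median domain length was 6.8 and 10.0 kb in the ICM libraries and 5.6 and 7.4 kb in the TE libraries. ICM replicate 1 thus lay between the TE replicates, and the replicates of one lineage differed about as much as the lineages did. The log2 ratio of 0.36 had p = 0.667 in the exact permutation test. It was 0.08 without ICM replicate 2, 0.16 without TE replicate 1, 0.64 without ICM replicate 1 and 0.56 without TE replicate 2. It turned to -0.047 when each list was cut by score to the covered length of the shortest list. That cut took more from the longer TE lists and, because the score rises with length, tended to remove short domains. A rise of the TE medians was therefore built into it. Because the libraries overlapped and the ratio depended on single libraries, no direction is given for the median length. At the broad end of the distribution, domains of at least 100 kb numbered 65 and 106 in ICM and 46 and 60 in TE. Domains of at least 20 kb held 40.6% and 49.6% of the covered length in ICM and 35.1% and 40.7% in TE. The longest domain of each library measured 228.6 and 287.2 kb in ICM and 196.4 and 235.2 kb in TE. For this broad class, too, ICM replicate 2 stood above the other 3 libraries, and the 20 kb shares of ICM replicate 1 and TE replicate 2 were nearly the same.

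**Figure D1:**
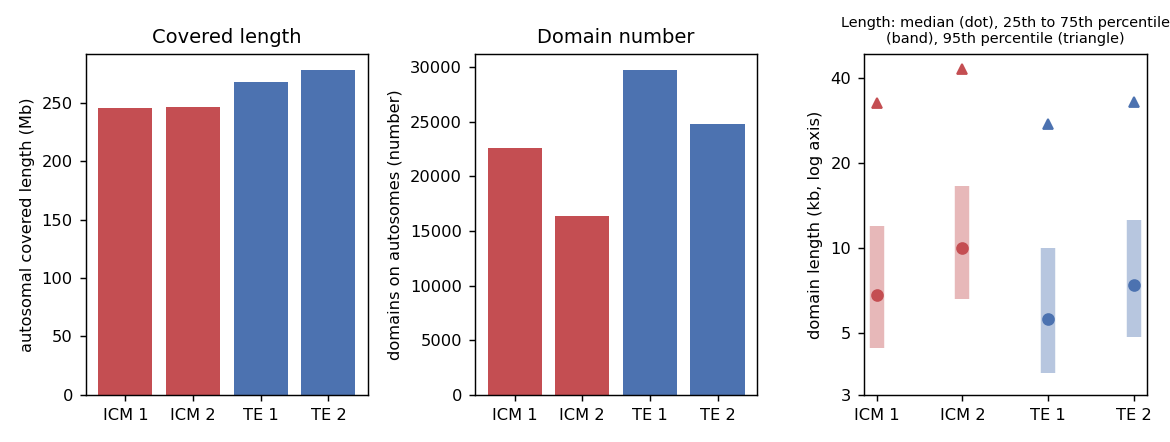
H3K27me3 domains on the autosomes of the 4 libraries (red, ICM; blue, TE): covered length in Mb, number of domains, and domain length in kb on a log axis (dot, median; band, 25th to 75th percentile; triangle, 95th percentile). Both TE libraries cover more than both ICM libraries (268.02 and 278.03 against 245.64 and 246.09 Mb), while the median lengths of ICM replicate 1 (6.8 kb) and TE replicate 2 (7.4 kb) lie among those of the other lineage.

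The positions of the domains separated the lineages. The Jaccard index, which is the length covered in both lists divided by the length covered in either, was 0.767 between the ICM replicates and 0.779 between the TE replicates. It was 0.577 to 0.595 over the 4 pairs of an ICM and a TE library. Both within-lineage values lay above all 4 between-lineage values, with a difference of means of 0.186. The one-sided exact permutation test gave p = 0.333, again the smallest possible with 2 against 2 libraries.

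Most bins marked in both replicates of a lineage were marked in the other lineage too. The shared class took 7.06% of all autosomal bins, the ICM-only class 1.16% and the TE-only class 1.94%. Of the 44231 bins marked in both ICM libraries, 79.4% were shared and 13.0% were ICM-only. Of the 49537 bins marked in both TE libraries, 70.9% were shared and 19.5% were TE-only. Another 23316 bins, 31.6% of those marked in any library, differed between replicates and entered no class. TE-only bins were 1.68 times as many as ICM-only bins, and ICM-only bins made up 37.3% of the lineage-only bins. With every list trimmed by score to 245.64 Mb, there were 6972 ICM-only and 7012 TE-only bins, and the ICM-only share was 49.9%. Lists of equal length leave little room for unequal counts, so this outcome was largely set by the trimming. It cannot show whether the imbalance belongs to the mark or to the length of the lists.

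Lineage-only bins chosen in 1 pair of libraries recurred in the pair that had not chosen them. A bin marked in 1 ICM library and unmarked in 1 TE library was marked in the other ICM library and unmarked in the other TE library in 50.1% to 57.3% of cases over the 4 ways of choosing. The reverse pattern, marked in the other TE and unmarked in the other ICM library, occurred in 4.14% to 6.48%. For bins marked in 1 TE and not in 1 ICM library, the pattern recurred in 57.1% to 61.4% and was reversed in 2.66% to 4.43%. The mean recurrence was 53.8% for ICM and 59.2% for TE, so a large part of the single-pair differences was not found again in the other pair.

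Lineage-only H3K27me3 came mostly in short pieces. The ICM-only bins formed 3655 runs of adjacent bins, of which 66.6% were 1 bin long, and the TE-only bins formed 6319 runs, of which 68.7% were 1 bin long. Of the 10990 shared runs, 42.3% were 1 bin long. The longest runs were 70 kb in ICM and 65 kb in TE, against 305 kb for the shared class. ICM-only runs more often bordered shared bins. A shared bin lay directly beside 1575 of the 3655 ICM-only runs (43.1%) and 1623 of the 6319 TE-only runs (25.7%). Within 25 kb of a shared bin lay 55.3% of ICM-only and 51.2% of TE-only bins, and beyond 100 kb lay 25.9% and 21.8%. These are descriptions of the classes with no test. The shares of all autosomal bins at these distances are not given, so no nearness beyond that of all bins is read from them. Viewed by domain, 3811 (16.9%) and 1916 (11.7%) of the ICM domains had no base covered in either TE library, with median lengths of 5.0 and 8.0 kb. Among the TE domains, 9311 (31.3%) and 6790 (27.4%) had no base covered in either ICM library, with median lengths of 4.2 and 5.4 kb. In each of the 4 libraries these medians lay below those of domains covered to at least 50% in both libraries of the other lineage. The latter medians were 7.6 and 10.6 kb in ICM and 7.4 and 9.0 kb in TE. A long domain is less likely to lack every covered base of the other lineage, so the choice itself favours short domains. No difference in length is read from these medians.

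The 5 longest stretches covered in both ICM and in no TE library lay on 5 chromosomes and measured 39.8 to 54.0 kb (coordinates refer to ARS-UCD1.2, the bovine build used by the authors). The longest, chr6:99204801-99258800, was covered to 100% in both ICM libraries and to 0% in both TE libraries. No H3K27me3 was called there in GV, 2C, 4C, 8C or MO, and BL covered 13.3% and 15.9% of it. The third in length, chr1:50176201-50216400, was already covered to 70.1% and 70.6% in MO, and the next, chr25:36612001-36652200, to 37.3% and 33.3%. The fifth, chr10:86780201-86820000, held H3K27ac over 61.2% and 59.8% of its length in the TE libraries and over 1.76% and 1.01% in the ICM libraries. The MO libraries covered that stretch with H3K27ac to 56.3% and 47.7% and had no H3K27me3 there.

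The 5 longest stretches covered in both TE and in no ICM library measured 33.4 to 44.0 kb. The longest, chr12:85078401-85122400, carried H3K27me3 in every untreated group from GV to BL, from 65.0% of its length in 2C replicate 1 to 100% in both MO libraries. H3K9me3 covered 94.5% and 97.7% of it in TE and 0% in both ICM libraries, while H3K27ac covered 22.2% and 19.4% in ICM and 0% in TE. The second, chr16:49334401-49373400, was covered to 94.9% or more in all GV, 2C, 4C and 8C libraries and to 16.4% and 8.21% in MO. The fifth, chr17:50929201-50962600, had no H3K27me3 in 2C, 4C, 8C or MO but was covered to 94.6% and 89.8% in BL. H3K27ac lay over 42.2% and 47.0% of it in ICM and over 0% in TE. All 5 of the TE-only stretches carried H3K9me3 in both TE libraries, over 35.4% to 97.7% of their length. The third, chr14:8315601-8351400, also carried it in both ICM libraries, over 40.2% and 19.6%, and the others had none in ICM. Of the ICM-only stretches, chr1:50176201-50216400 was the one with H3K9me3 in both ICM libraries, at 72.6% and 84.6%, and none of the 5 had any in TE. By comparison, the longest stretch covered in all 4 libraries, chr16:75116401-75274200, measured 157.8 kb and held H3K9me3 over at least 96.2% of its length in every ICM and TE library and no H3K27ac in any.

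**Figure D2:**
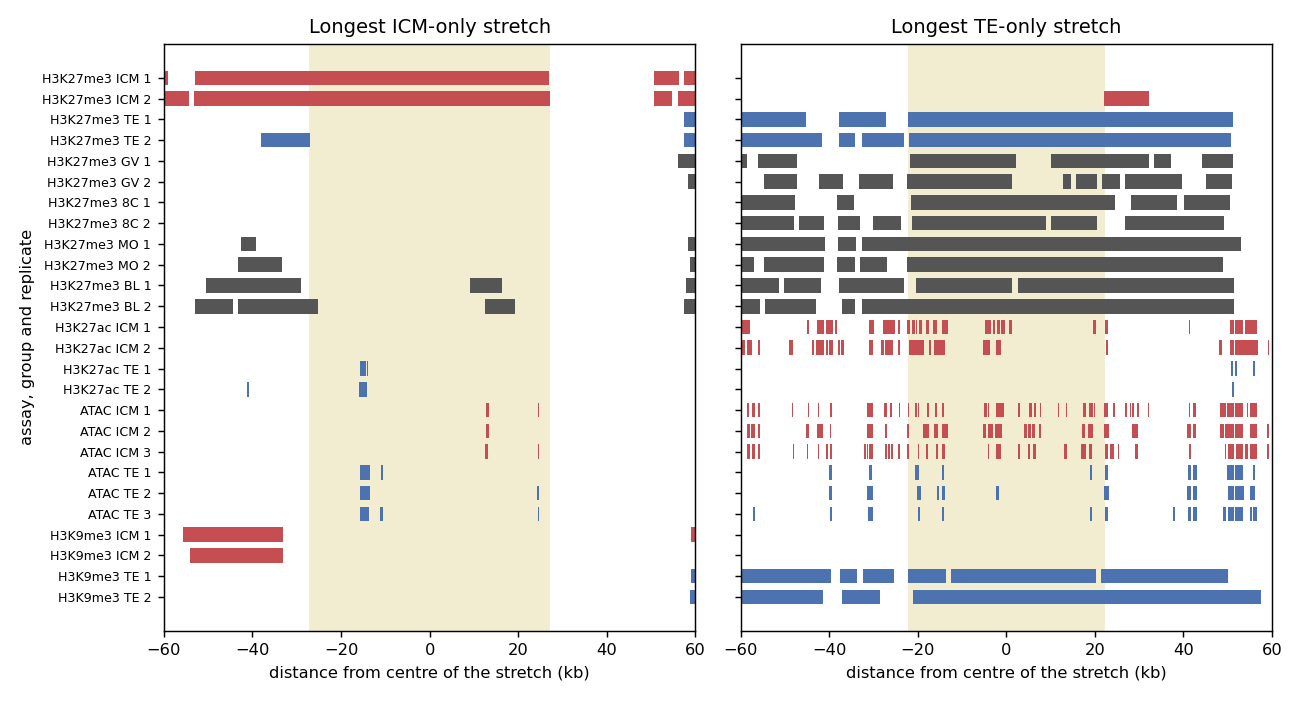
Domains and peaks around the longest ICM-only stretch (left, 54.0 kb) and the longest TE-only stretch (right, 44.0 kb), one row per library, against the distance from the centre of the stretch in kb; shading marks the stretch, red bars are ICM, blue bars TE and grey bars oocytes and embryos. H3K27me3 fills the left stretch in the ICM libraries alone, apart from short BL domains, whereas the right stretch is filled in TE, partly or wholly in GV, 8C, MO and BL, and carries H3K27ac in ICM and H3K9me3 in TE.

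The balance between the lineages differed from autosome to autosome. Both TE libraries covered more than both ICM libraries on 20 autosomes, both ICM libraries covered more on 6 (chromosomes 6, 9, 12, 14, 20 and 27), and the libraries overlapped on 3 (chromosomes 1, 23 and 24). The log2 ratio of ICM over TE had a median of -0.17 and ran from -0.49 on chromosome 22 to 0.29 on chromosome 12. Chromosome 22 had 4.49 and 4.60 Mb covered in ICM and 6.29 and 6.46 Mb in TE. Chromosome 12 had 9.11 and 9.17 Mb in ICM and 7.32 and 7.61 Mb in TE. On both chromosomes the gap between the lineages exceeded the differences between replicates. Other autosomes far to the TE side were 28 (-0.47), 25 (-0.46) and 7 (-0.45), and others far to the ICM side were 27 (0.18) and 9 (0.16). When each library was scaled to its own autosomal total, 14 autosomes were higher in both TE libraries and 12 were higher in both ICM libraries.

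Counts of lineage-only bins, taken from the same unscaled lists, followed the unscaled covered lengths and are not separate support for them. TE-only bins outnumbered ICM-only bins on 23 autosomes, and the ICM-only share of lineage-only bins ran from 16.3% on chromosome 28 to 72.2% on chromosome 12, with a median of 33.5%. The ICM-only bins of chromosome 12 numbered 354 and its TE-only bins 136. Chromosome 25 had the most TE-only bins for its size, 435 or 5.14% of its bins, against 95 ICM-only bins. Chromosome 19 followed with 582 TE-only bins (4.59%) and also had the highest shared percentage (15.1%), while chromosome 10 had the lowest (3.67%). Across the 29 autosomes, Spearman's rho of the log2 ratio was -0.14 with the shared percentage and 0.15 with chromosome length. The ICM share of H3K27me3 lineage-only bins and the same share computed for H3K9me3 had a rho of 0.51 over the 29 autosomes. These coefficients describe chromosomes that come from the same libraries, so they carry no p-value.

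**Figure D3:**
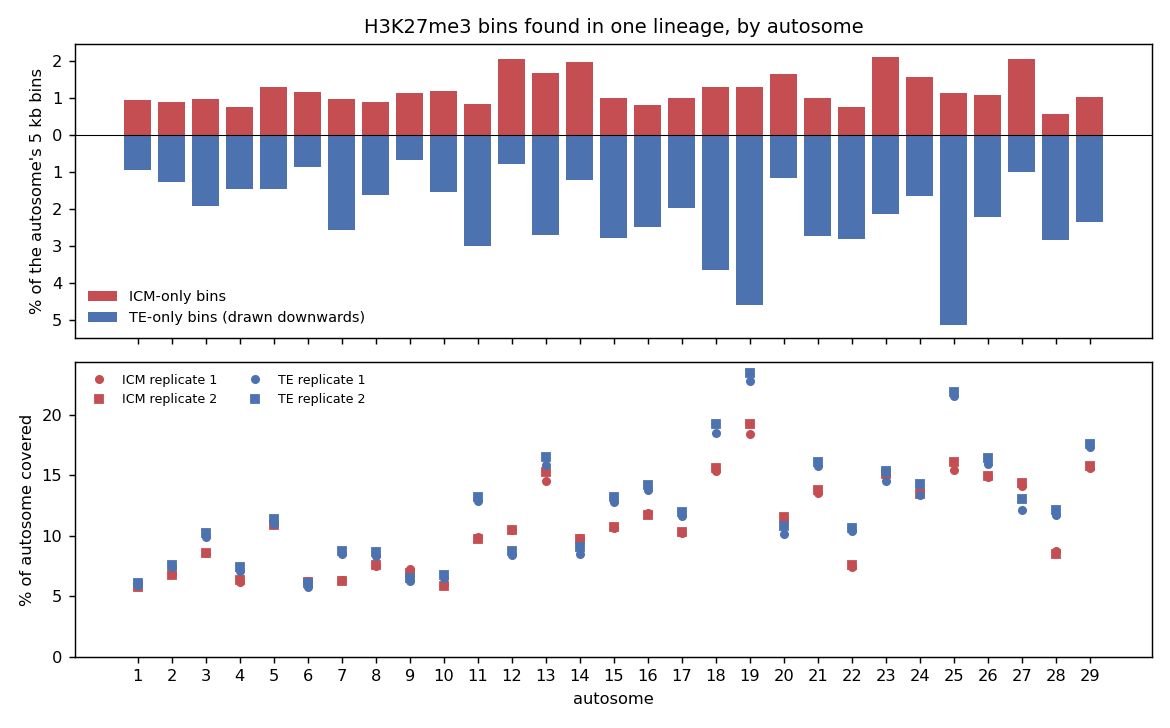
Autosomes 1 to 29. Top, ICM-only bins (red, upwards) and TE-only bins (blue, downwards) as a percentage of the 5 kb bins of the autosome; bottom, percentage of the autosome covered by H3K27me3 domains in each library, with ICM in red and TE in blue. TE-only bins reach 5.14% of chromosome 25, and chromosome 12 has the highest ICM-only share, with 354 ICM-only and 136 TE-only bins.

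Shared and lineage-only bins also differed in where they lay along a chromosome. The last 2 Mb of the autosomes held 11.3% of the shared bins but 3.77% of the ICM-only and 3.08% of the TE-only bins, against 2.33% of all bins. The first 2 Mb held 2.43% of shared, 0.957% of ICM-only and 2.54% of TE-only bins. Of the 1 Mb windows, the one with most ICM-only bins was chr23:45000001-46000000, with 66 ICM-only, 0 TE-only and 23 shared bins. H3K27me3 covered 49.7% and 50.8% of that window in ICM and 12.6% and 13.7% in TE, and GV oocytes covered 42.7% and 40.1%. The window with most TE-only bins was chr15:28000001-29000000, with 47 TE-only, 0 ICM-only and 21 shared bins. It was covered to 42.3% and 44.2% in TE, to 12.3% and 14.0% in ICM, and to 36.5% and 35.2% in 8C.

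The X chromosome, which is outside the autosomal comparison, leaned the other way. It had 2021 ICM-only bins (7.27% of its bins), 52 TE-only bins (0.187%) and 1188 shared bins (4.27%). With X included, the log2 ratio of covered length moved from -0.15 to -0.07.

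Active marks lay on the side of the lineage that lacked H3K27me3. In the TE libraries, H3K27ac covered 4.32% and 4.50% of the ICM-only bins but 0.232% and 0.277% of the TE-only bins. In the ICM libraries the order was turned round, with 1.33% and 1.02% of ICM-only and 3.94% and 3.27% of TE-only bins covered. Within each library the larger value was several times the smaller, and the 2 replicates were close to each other. The 2 classes were not alike when set against all bins. The TE H3K27ac lists covered ICM-only bins 1.87 and 1.86 times as densely as the whole autosomes, whereas the ICM lists covered TE-only bins 0.999 and 0.891 times as densely. Shared bins were poor in H3K27ac in all 4 libraries, at 0.252% to 0.617% of their bases.

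Open chromatin showed the same opposition at a smaller size. ATAC peaks of the 3 TE libraries covered 7.63%, 8.73% and 7.49% of ICM-only bins and 4.46%, 5.34% and 4.18% of TE-only bins. Those of the 3 ICM libraries covered 4.77%, 5.80% and 4.81% of ICM-only bins and 6.30%, 7.46% and 6.18% of TE-only bins. Both classes therefore held open sites in both lineages, and all these values lay above the library's own average over all bins, which was 3.25% to 3.92%. H3K4me3 covered 3.44% and 3.18% of ICM-only and 1.76% and 1.61% of TE-only bins in TE. In ICM, it covered 1.503% and 1.588% of ICM-only and 1.88% and 1.95% of TE-only bins.

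To compare the lineages over libraries, each library was given a lean, the log2 of its coverage of TE-only bins over that of ICM-only bins. The lean sets 2 values of 1 list against each other, so a factor common to both classes drops out of it. The mean lean of ICM libraries minus that of TE libraries was 5.74 for H3K27ac, 1.15 for ATAC and 1.28 for H3K4me3. All 7 ICM libraries of the 3 assays had a lean above 0, and all 7 TE libraries had one below 0. The sum of the 3 differences was 8.17, and the exact two-sided permutation test over 720 arrangements gave p = 0.00278, the smallest it can give (Benjamini-Hochberg adjusted p = 0.0139 over the 10 tests made). None of the 3 assays alone could pass the threshold of 0.05: exact permutation p was 0.333 for H3K27ac and H3K4me3 and 0.1 for ATAC, in each case the smallest possible.

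**Figure D4:**
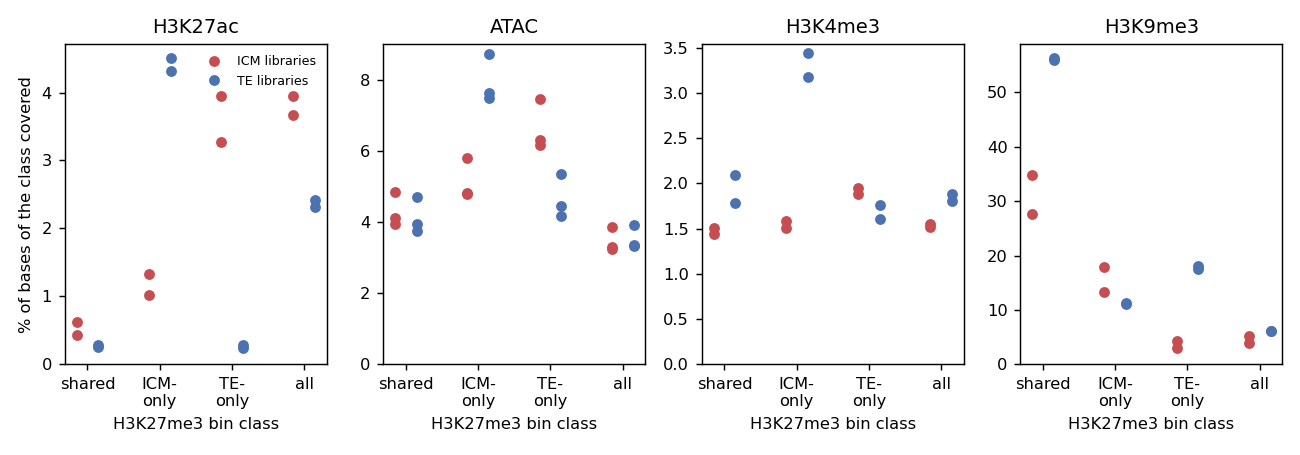
Percentage of the bases of shared, ICM-only, TE-only and all autosomal bins covered by H3K27ac, ATAC, H3K4me3 and H3K9me3 peaks, one point per library (red, ICM; blue, TE; the vertical scales differ). H3K27ac of TE reaches 4.32% and 4.50% in ICM-only bins and 0.232% and 0.277% in TE-only bins, while H3K9me3 of TE reaches 17.6% and 18.1% in TE-only bins.

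Single bins with the active mark in the opposite lineage were a minority of each class. H3K27ac counted as present where it covered at least 500 bases of a bin. It was present in both TE and in no ICM library in 1.12% of all bins, and in 416 (7.24%) of the ICM-only bins, 5 (0.0517%) of the TE-only bins and 104 (0.296%) of the shared bins. It was present in both ICM and in no TE library in 3.56% of all bins, and in 778 (8.05%) of the TE-only bins, 26 (0.452%) of the ICM-only bins and 333 (0.948%) of the shared bins. The share in the opposite class was thus 6.48 times that of all bins for ICM-only bins and 2.3 times for TE-only bins. With at least 2500 covered bases required, these became 4.83 times (95 bins) and 1.12 times (145 bins), so TE-only bins held such broad ICM H3K27ac at nearly the same share as all bins. Read from the side of the active mark, ICM-only H3K27me3 took 7.48% of the 5560 bins with H3K27ac in TE alone, and TE-only H3K27me3 took 4.40% of the 17692 bins with H3K27ac in ICM alone. Most bins with H3K27ac in TE alone (86.1%) or in ICM alone (90.5%) had no H3K27me3 mark in any of the 4 libraries. That was near the share of all autosomal bins without the mark, 85.2%.

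ATAC peaks, counted by the same 500-base rule, were found in all TE and in no ICM library in 1.52% of all bins and in 362 (6.30%) of the ICM-only bins. In all ICM and in no TE library, they were found in 1.45% of all bins and in 398 (4.12%) of the TE-only bins. In the same lineage as the H3K27me3, the counts were 93 ICM-only bins (1.62%) and 90 TE-only bins (0.931%), near or below the share of all bins. H3K4me3 was present in TE alone in 0.697% of all bins and in 170 (2.96%) of the ICM-only bins. It was present in ICM alone in 0.186% of all bins and in 54 (0.559%) of the TE-only bins.

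The ICM-only bins with the most H3K27ac in TE lay on 5 chromosomes. At chr8:16740001-16745000, H3K27me3 covered 100% in both ICM libraries and 0% in both TE libraries, whereas H3K27ac covered 100% and 98.0% in TE and 0% in ICM. ATAC peaks there covered 55.0% to 84.0% in TE and 28.0% to 48.0% in ICM. At chr3:14410001-14415000, H3K4me3 covered 100% in both TE and 11.0% in both ICM libraries, beside H3K27ac over 98.0% and 100% in TE. Of the 5 TE-only bins with the most H3K27ac in ICM, 3 lay within 1 Mb of each other on chromosome 6, and 2 of them were adjacent. At chr6:69720001-69725000, H3K27me3 covered 100% in both TE and 0% in both ICM libraries, while H3K27ac covered 100% and H3K4me3 100% in both ICM libraries. H3K4me3 covered 15.0% and 10.0% there in TE. That bin was covered by H3K27me3 to 100% in both GV libraries, to 0% from 2C to MO, and to 100% in both BL libraries.

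H3K9me3, the other repressive mark measured, lay on the same side as H3K27me3. In TE it covered 17.6% and 18.1% of TE-only and 11.1% and 11.2% of ICM-only bins. In ICM it covered 2.98% and 4.35% of TE-only and 13.3% and 17.8% of ICM-only bins. All autosomal bins were covered to 6.16% and 6.20% in TE and to 3.88% and 5.13% in ICM. The TE libraries thus exceeded their average in ICM-only bins as well, whereas the ICM libraries lay below theirs in TE-only bins. The difference of leans, ICM minus TE, was -2.77, opposite in sign to that of the active marks, with an exact permutation p of 0.333, the smallest possible. Shared bins carried the most H3K9me3, at 27.6% and 34.9% in ICM and 56.0% and 56.3% in TE. By bins covered to at least 50%, H3K9me3 was found in both TE and no ICM library in 1.98% of all bins, in 930 (9.62%) of the TE-only bins and in 131 (2.28%) of the ICM-only bins. In both ICM and no TE library it was found in 0.845% of all bins, in 282 (4.91%) of the ICM-only bins and in 18 (0.186%) of the TE-only bins. Of the shared bins, 6281 (17.9%) had H3K9me3 in TE alone and 324 (0.922%) in ICM alone. All 4 libraries had it in 8045 (22.9%) of the shared bins, against 2.11% of all bins.

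The 3 classes had different histories before the blastocyst. Shared bins were covered to 54.6% and 50.7% in GV oocytes, to 12.9% to 18.9% in 2C, 4C and 8C, to 61.3% and 57.8% in MO and to 92.8% and 94.3% in BL. Both lineage-only classes began at a similar level in GV, with 24.4% and 23.2% for ICM-only and 22.6% and 20.2% for TE-only bins. During cleavage H3K27me3 covered 15.2% to 23.3% of the bases of the TE-only bins, more than of the shared bins in each of the 6 libraries, and 4.65% to 7.37% of those of the ICM-only bins. At MO the order turned, with ICM-only bins at 28.2% and 25.4% and TE-only bins at 10.8% and 9.75%. At BL it turned again, to 34.7% and 35.5% for ICM-only and 61.9% and 66.4% for TE-only bins. Whole blastocysts hold cells of both lineages, so these BL values also depend on the share of each. A change of the mark between MO and BL and this mixture cannot be told apart.

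The lean of the H3K27me3 lists followed these shifts. It was -0.11 and -0.20 in GV, between 1.61 and 1.71 in all 6 libraries of 2C, 4C and 8C, -1.38 in both MO libraries, and 0.83 and 0.90 in BL. Replicates differed by at most about 0.1, so the shifts between GV, cleavage, MO and BL exceeded the spread between replicates. The exact permutation test of the variation between stages, over 10395 ways to pair the 12 libraries, gave p = 0.000192 (Benjamini-Hochberg adjusted p = 0.00192 over the 10 tests). The BL lean exceeded the MO lean by 2.25, with an exact permutation p of 0.333, the smallest possible with 2 libraries each. These oocyte and embryo libraries had no part in defining the classes, although whole blastocysts hold cells of the lineages that did. The 8-cell libraries grown with α-amanitin, which were left out of that test, had leans of 1.68 and 1.61. The H3K9me3 lists leaned the same way in cleavage, by 1.94 and 1.98 in 2C, 1.65 and 1.69 in 4C and 1.61 and 1.69 in 8C. The lean of the cleavage stages was thus not particular to H3K27me3.

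**Figure D5:**
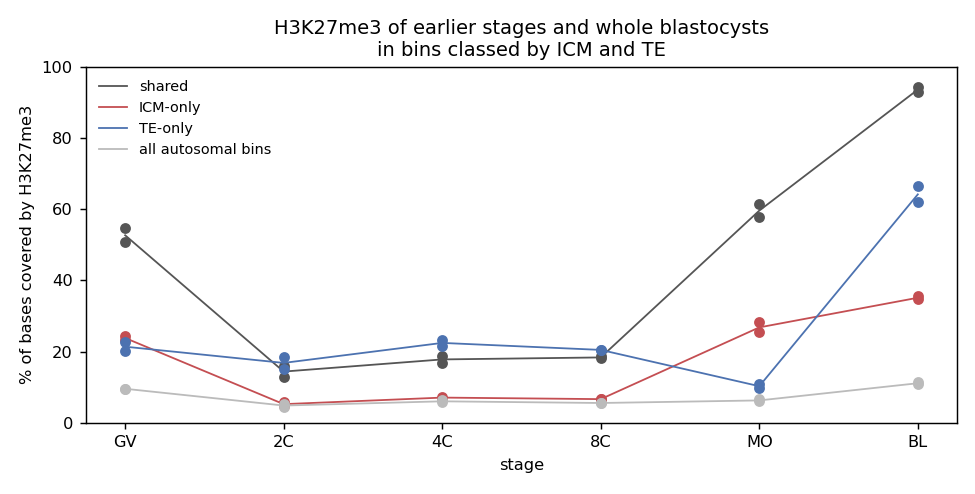
Percentage of bases covered by H3K27me3 from GV oocytes to whole blastocysts in shared (dark grey), ICM-only (red), TE-only (blue) and all autosomal bins (light grey); points are libraries and lines join the means of the 2 replicates. TE-only bins lie at 15.2% to 23.3% through cleavage, fall to 10.8% and 9.75% at MO and reach 61.9% and 66.4% at BL, while ICM-only bins rise from 4.65% to 7.37% in cleavage to 28.2% and 25.4% at MO.

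Counting bins gave the same order. In both GV libraries, 49.8% of shared, 20.5% of ICM-only and 18.1% of TE-only bins were marked, against 7.58% of all bins. In both MO libraries, 57.2% of shared, 22.3% of ICM-only and 7.58% of TE-only bins were marked, against 5.41% of all bins. In both BL libraries, 97.0% of shared, 24.3% of ICM-only and 58.2% of TE-only bins were marked, against 10.0% of all bins. The ICM-only value was 41.8%, and the TE-only value 79.6%, when the 25% of domains with the lowest score per base were left out of each ICM and TE list. The whole blastocyst left 50.2% of the ICM-only bins unmarked in both of its libraries and 16.4% of the TE-only bins. The mark at BL also overlapped more with TE than with ICM over all bases, with Jaccard indices of 0.720 to 0.769 for the 4 pairs of a BL and a TE library and 0.642 to 0.653 for the 4 pairs of a BL and an ICM library. MO lay on the ICM side, with 0.439 to 0.461 against ICM and 0.385 to 0.402 against TE. GV was nearly even, with 0.291 to 0.323 against ICM and 0.288 to 0.317 against TE.

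Followed bin by bin, the most frequent path of TE-only bins was unmarked at GV, unmarked at MO and marked at BL, with both replicates alike at each stage, which 3521 (36.4%) of all TE-only bins took. Replicates of at least 1 of these stages differed in 35.9% of TE-only, 38.6% of ICM-only and 23.1% of shared bins, which therefore have no path. The most frequent such path of ICM-only bins was unmarked at all 3 stages, with 1798 bins (31.3%), so these bins were marked in the isolated ICM and in neither library of the whole blastocyst. Shared bins were most often marked at all 3 stages, with 12938 bins (36.8%), and 6391 (18.2%) were unmarked at GV and MO and marked at BL. The path marked at all 3 of these stages was taken by 237 (4.12%) of ICM-only and 282 (2.92%) of TE-only bins. The cleavage stages are not part of these paths. The share of all autosomal bins that took each path is not given here. Taken singly, 88.0% of all bins at GV, 92.6% at MO and 87.2% at BL were unmarked in both libraries. For ICM-only bins these shares were 70.7%, 67.3% and 50.2%, lower at each stage. The path unmarked at all 3 stages is therefore not read as a trait of the ICM-only class. Of the 26934 bins marked in both MO libraries, 74.6% were later shared, 4.75% ICM-only and 2.72% TE-only, and 8.54% were marked in none of the 4 lineage libraries. Of the 22469 bins marked in both 8C libraries, 24.8% were later shared, 7.78% TE-only and 1.28% ICM-only, and 56.5% were marked in none. The corresponding shares of all autosomal bins were 7.06% shared, 1.94% TE-only, 1.16% ICM-only and 85.2% marked in none, so the ICM-only share among bins marked at 8C was near that of all bins.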

How the data were processed

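Peak lists of 81 libraries were used, 1 deposited list per library. Per the submitters' processing notes, the tools named are BWA 0.7.9a, SAMtools 1.9, Picard 2.26.10, cutadapt 1.8.3, Trim Galore 0.4.0 and SICER, and ARS-UCD1.2 is the build. The lists are named for epic2, another caller, so the caller was not settled. The sources used here give neither its thresholds nor any control. The deposited lists give positions and a score per peak, made by the authors, whose meaning was not established. The score was used only to rank peaks within a list. It rises with domain length (Spearman's rho 0.891 to 0.914 in the H3K27me3 lists), so trimming by score favours long domains. H3K27me3 domains lie on a grid of 200 bases with gaps of at least 1200 bases. Sequencing depth is unknown, so no interval from counts is given.

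From the lists, autosomal coverage was computed in 5 kb bins with Python 3.11.15, NumPy 2.4.6, pandas 2.3.3 and SciPy 1.17.1, after the scripts had been tested on simulated lists. Tests were exact permutation tests over libraries, with Benjamini-Hochberg adjustment over the 10 tests and a threshold of 0.05. Regions were named by rule: the 5 longest stretches of each lineage and the 3 longest shared ones, the 3 windows of 1 Mb per lineage with most lineage-only bins, and the 5 bins per lineage with the most opposite H3K27ac. The report describes some of these, picked after their values were seen. The bin classes, tests and region rules were chosen with earlier results of these data known. Alternatives covered bin size, the marking threshold, score trimming, joining of peaks, the block by replicate number and leaving out each library. Unplaced contigs and gene annotation were not used here, so regions carry no gene names.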

Additional observations from a re-analysis of the deposited data

Results flagged for a closer look

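Some chromosomes moved against the autosomes as a whole, which had more H3K27me3 covered in both TE libraries than in both ICM libraries. On 6 autosomes and on X, both ICM libraries covered more than both TE libraries, and the difference between chromosomes was not tested. On X, H3K27me3 covered 21.2 and 20.2 Mb in ICM against 7.12 and 8.31 Mb in TE. Its log2 ratio was 1.42. The log2 ratio was 0.29 on chromosome 12, 0.18 on chromosome 27, 0.16 on chromosome 9, 0.15 on chromosome 14, 0.13 on chromosome 20 and 0.073 on chromosome 6. On chromosome 6 the lineages were 7.40 and 7.26 Mb against 6.80 and 7.13 Mb, so the gap between the nearest libraries of each lineage was smaller than the difference between the TE replicates. The same held on chromosome 20, with 8.15 and 8.31 Mb in ICM against 7.29 and 7.80 Mb in TE.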

How the results depend on the processing

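The direction and the side of the threshold held for the opposed active marks under all 26 alternatives (summed difference 7.19 to 8.69, exact permutation p 0.00278 to 0.0156), for the stage lean under all 22 (p 9.62e-05 to 0.00077), and for H3K9me3 (-2.86 to -2.23, 15 alternatives), the BL minus MO lean (1.75 to 2.73, 14), the Jaccard separation (0.173 to 0.202, 8) and the covered length (-0.18 to -0.07, 8), none of which can pass with 2 libraries a group. Median domain length reversed to -0.047 with lists trimmed to one length, a cut that tends to remove short domains from the longer TE lists. Bin counts scaled with bin size: 2 kb bins gave 85916 shared, 14050 ICM-only and 24041 TE-only, and 10 kb bins gave 17489, 2967 and 4598. At 80% coverage, shared fell to 23374 and TE-only to 5776, against 4930 ICM-only. Leaving out 1 library gave 6910 to 8537 ICM-only, 11908 to 13776 TE-only and 36291 to 37629 shared bins. Held-out recurrence was 58.3% (ICM) and 64.4% (TE) with any covered base, and 55.0% (TE) with trimmed lists. Bins with opposite H3K27ac fell to 95 ICM-only and 145 TE-only, and those with opposite ATAC to 60 and 49, when 2500 bases were required. The ATAC share was then 5.75 (ICM-only) and 4.72 (TE-only) times that of all bins, against 4.15 and 2.85 with 500 bases. Any covered base gave 606 TE-only bins with opposite ATAC, 2.22 times the share of all bins. The share of TE-only bins marked in both BL libraries ranged from 45.9% to 79.6% over 10 alternatives, and that of ICM-only bins from 18.5% to 41.8%.

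Replicate numbers did not pair the libraries (correlations of replicate differences over bins -0.0217 to 0.0169). With the replicate block, the active marks kept 8.17 (exact permutation p = 0.0156, the smallest possible), H3K9me3 -2.77, covered length -0.15 and median length 0.36, each with p = 0.5.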

Other observations

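H3K9me3 of earlier stages leaned to the same class as H3K27me3 during cleavage. In GV oocytes H3K9me3 covered 22.0% and 22.5% of the TE-only bins against 7.56% and 7.63% of the ICM-only bins. In 2C, 4C and 8C it covered 19.0% to 25.5% against 4.85% to 7.89%. All autosomal bins were covered to 7.54% and 7.47% in GV and to 5.09% to 7.11% in 2C, 4C and 8C, near the ICM-only values. In GV the H3K9me3 lean towards the TE-only class was 1.54 and 1.56, whereas that of H3K27me3 was small and pointed to the ICM-only class, at -0.11 and -0.20. At MO, H3K9me3 covered 6.94% and 9.45% of ICM-only and 5.96% and 8.55% of TE-only bins, and the ranges overlapped.

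At MO, H3K27ac covered 5.06% and 4.81% of ICM-only and 4.59% and 4.74% of TE-only bins, slightly more of the ICM-only class in both libraries (leans of -0.14 and -0.024). In whole blastocysts it covered 2.66% and 3.20% of ICM-only and 0.442% and 0.525% of TE-only bins, the order seen in TE.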
